A study of Saccharomyces cerevisiae with 8 samples.

Results

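The genes described here are 10 budding yeast genes of mating type a and of the response to mating pheromone: MFA1, MFA2, STE2, STE6, BAR1, AGA1, AGA2, FUS1, FAR1 and SST2. They were picked by gene name, at a point when earlier results of these data were known, as the rows of the deposited expression table with those 10 gene names, out of 7127 features. Of the 10, 8 passed a filter on low values (a mean of at least 1 FPKM over all libraries) and were tested, as were 6439 features in all. Poly(A) RNA was sequenced from Saccharomyces cerevisiae of the strain BY4741, either WT or Trm2KO, which lacks the tRNA methyltransferase gene TRM2, with hygromycin B at 50 µg/mL or with no treatment. The 4 groups, each of 2 biological duplicates by the series' account, were Trm2KO with hygromycin B, Trm2KO without it, WT with hygromycin B and WT without it. Hygromycin B is an aminoglycoside that inhibits the elongation step of translation, and the study asked how loss of the 5-methyluridine made by Trm2 in tRNA affects expression with and without it. The growth protocol names Geneticin at 200 µg/mL for the Trm2KO cultures and no such agent for WT, so genotype and Geneticin cannot be told apart. Hygromycin B cultures were grown to an OD600 of 0.4 and the general protocol gives 0.6 to 0.8, so the drug and the density at harvest cannot be told apart either. The libraries are whole-culture RNA, in which fewer cells expressing a gene and less of its RNA per cell cannot be told apart.

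Haploid yeast cells of mating type a secrete the lipid-modified peptide a-factor, made from the precursors encoded by MFA1 and MFA2 and exported by the ABC transporter Ste6, and sense the alpha-factor of the opposite type with the receptor Ste2. Receptor occupancy frees a G protein, a MAP kinase cascade then activates the transcription factor Ste12, and the cell arrests in G1, grows toward its partner and fuses with it. The secreted protease Bar1 and the G protein regulator Sst2 turn the signal down, Far1 carries the arrest, Fus1 acts in cell fusion, and Aga1 with Aga2 forms the agglutinin of a cells. BY4741 is a haploid a strain, and no pheromone treatment is named in the labels, so the values below describe vegetative cultures.

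The a-factor genes had no usable measurement. MFA1 and MFA2 were listed at 0 in all 8 libraries. The coding sequences are shown because their length sets them apart from the other members: in RefSeq R64 they span 111 bases (MFA1, YDR461W, chrIV:1385176-1385286, plus strand) and 117 bases (MFA2, YNL145W, chrXIV:352414-352530, plus strand). The capitals mark the codons of the CAAX box, the C-terminal motif at which the precursor is farnesylated and cut, just before the stop codon.
MFA1: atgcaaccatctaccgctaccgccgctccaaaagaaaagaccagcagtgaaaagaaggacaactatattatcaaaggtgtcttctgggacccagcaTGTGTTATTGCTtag
MFA2: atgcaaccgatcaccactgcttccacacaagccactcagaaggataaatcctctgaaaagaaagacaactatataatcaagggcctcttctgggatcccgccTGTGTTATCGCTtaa
The longest run of bases shared by both was 11 bases. Every one of the 69 protein-coding features with a RefSeq coding length of at most 150 bases was likewise at 0 in all 8 libraries, a limit chosen after the values were seen. Among them were OST4, PMP1 and PMP2, small membrane proteins of growing cells with coding lengths of 111, 123 and 132 bases. The shortest coding length with a value above 0 in every library was 168 bases, that of PMP3, which held 508 to 1402 FPKM as deposited. Of the 39 features of 151 to 180 bases, 14 were at 0 throughout, and of the 108 features of 181 to 240 bases, 3 were. A listed 0 for MFA1 or MFA2 is therefore no measure of their RNA, and no fold change is given for either.

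**Figure D1:**
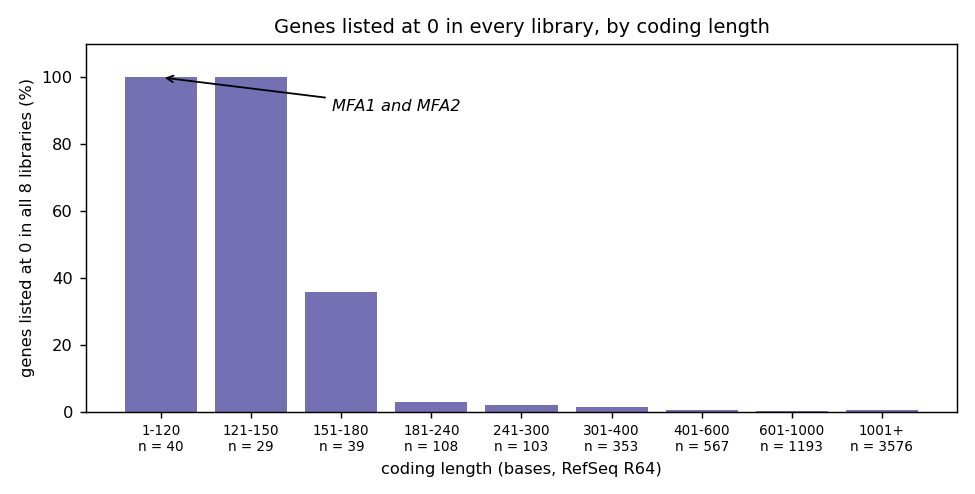
Share of genes listed at 0 in all 8 libraries (vertical axis, percent) by RefSeq R64 coding length (horizontal axis, bases, with the number of genes in each class). All genes of up to 150 bases, MFA1 and MFA2 among them, are at 0, against 35.9% of those of 151 to 180 bases and 2.78% of those of 181 to 240 bases.

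The other 8 members are single-exon genes that overlap no other RefSeq R64 gene: STE2 (YFL026W, chrVI:82580-83875, plus strand), STE6 (YKL209C, chrXI:42423-46295, minus strand), BAR1 (YIL015W, chrIX:322342-324105, plus strand), AGA1 (YNR044W, chrXIV:703699-705876, plus strand), AGA2 (YGL032C, chrVII:436570-436833, minus strand), FUS1 (YCL027W, chrIII:71803-73341, plus strand), FAR1 (YJL157C, chrX:123836-126328, minus strand) and SST2 (YLR452C, chrXII:1039270-1041366, minus strand). The deposited table carries no coordinates and its build is not given in the sources used here, so positions are those of R64 for the same locus tag.

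The upstream sequences of 4 members are printed to show how the motifs of this gene group are laid out: BAR1 and AGA1 had large differences with the drug in WT, STE6 and FUS1 smaller ones, and each pair holds 1 gene with and 1 without CATGTAA. Each window runs from 400 to 101 bases before the start codon, 300 bases, in the gene's own direction. Capitals mark 3 motifs searched on both strands: TGAAACA, the element bound by Ste12; CCNNNNNNGG, the core of Mcm1 sites; and CATGTAA, a half-site of the alpha2 repressor. BAR1 is chrIX:321942-322241 (plus strand), AGA1 chrXIV:703299-703598 (plus strand), FUS1 chrIII:71403-71702 (plus strand) and STE6 chrXI:46396-46695 (minus strand).
BAR1: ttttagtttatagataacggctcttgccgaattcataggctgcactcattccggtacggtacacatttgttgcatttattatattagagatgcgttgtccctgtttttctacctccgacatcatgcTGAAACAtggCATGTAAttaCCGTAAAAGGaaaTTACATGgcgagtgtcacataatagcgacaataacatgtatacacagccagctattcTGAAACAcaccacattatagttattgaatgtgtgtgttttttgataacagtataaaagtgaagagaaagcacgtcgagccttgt
AGA1: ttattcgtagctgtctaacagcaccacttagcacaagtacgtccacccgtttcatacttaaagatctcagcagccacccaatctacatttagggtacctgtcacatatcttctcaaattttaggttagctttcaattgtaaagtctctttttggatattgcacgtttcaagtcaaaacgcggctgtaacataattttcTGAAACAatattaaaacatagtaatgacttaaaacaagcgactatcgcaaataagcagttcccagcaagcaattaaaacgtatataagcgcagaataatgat
FUS1: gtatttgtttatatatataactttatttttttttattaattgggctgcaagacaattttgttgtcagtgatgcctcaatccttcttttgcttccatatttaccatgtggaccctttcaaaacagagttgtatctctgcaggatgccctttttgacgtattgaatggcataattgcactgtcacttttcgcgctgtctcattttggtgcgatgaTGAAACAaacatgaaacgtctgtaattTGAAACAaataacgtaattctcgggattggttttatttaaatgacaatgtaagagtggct
STE6: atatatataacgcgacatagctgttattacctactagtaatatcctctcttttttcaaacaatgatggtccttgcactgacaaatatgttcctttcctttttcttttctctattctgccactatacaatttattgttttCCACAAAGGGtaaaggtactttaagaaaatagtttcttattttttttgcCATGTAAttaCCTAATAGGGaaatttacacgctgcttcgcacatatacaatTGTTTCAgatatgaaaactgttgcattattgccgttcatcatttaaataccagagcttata
TGAAACA was in the windows of 9 of the 10 members, all but FAR1, against 7.64% of the windows of 6007 protein-coding genes of the table. It occurred at least 2 times in 5 members (MFA2, STE2, BAR1, AGA2 and FUS1) and in 0.449% of all windows. CCNNNNNNGG was in 7 member windows (all but AGA1, FUS1 and SST2) and in 35.0% of all windows. CATGTAA was in 6 member windows (MFA1, MFA2, STE2, STE6, BAR1 and AGA2) and in 3.96% of all windows. The BAR1 and STE6 windows hold CATGTAA beside a CCNNNNNNGG match, and the AGA1 and FUS1 windows hold neither. The window of MFA1 overlaps TFB3 and that of MFA2 overlaps YNL146W. A match is a string of letters in a fixed window, and none of these counts says whether a factor bound there.

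The values are FPKM, made by the authors, divided here by 1 scale factor per library (the median ratio to the geometric mean over libraries, 0.611 to 1.44) and called normalised FPKM. The deposited FPKM summed to 1171274 to 1654849 per library, with 6422 to 6513 features above 0. Ribosomal DNA features held between 2.01% and 19.3% of a library's sum and differed within groups. The targeted gene TRM2 was listed at 0 in all 4 Trm2KO libraries and held 158 and 152 normalised FPKM in WT with hygromycin B and 116 and 122 in WT without it. The scale factors were highest in drug-treated WT (1.43 and 1.44), where the members were lowest, and the other scalings given below bear on that. Read depth is unknown, since no counts are in the table. Differences are on the log2(normalised FPKM + 1) scale from 1 limma fit of all 8 libraries, which understates the change of low genes, with p values adjusted over all 6439 features by the Benjamini-Hochberg method and 0.05 as the threshold for a change. Tests were two-sided.

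STE2, which encodes the alpha-factor receptor, was the highest of the 8 measured genes in each of the 8 libraries. It held 564 and 546 normalised FPKM in Trm2KO with hygromycin B, 663 and 626 in Trm2KO without it, 233 and 260 in WT with the drug, and 708 and 706 in WT without it. Both drug-treated WT libraries stood far below the other 6, which spanned 546 to 708. In WT, STE2 was 2.86-fold lower with the drug (log2 difference −1.52 ± 0.066 SE, limma adjusted p = 3.37e-06). In Trm2KO the drug difference was −0.22 ± 0.066 (adjusted p = 0.0393). That small call was lost in 6 of the 8 fits with 1 library left out, and quantile normalisation gave 0.03 in the other direction. Without the drug, Trm2KO differed from WT by −0.13 (95% interval −0.29 to 0.03, adjusted p = 0.154), a difference that did not pass. With the drug, STE2 was 2.25-fold higher in Trm2KO than in WT (1.17 ± 0.066, adjusted p = 1.04e-05).

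STE6, the transporter that exports a-factor, held 167 and 164 normalised FPKM in Trm2KO with hygromycin B, 150 and 145 in Trm2KO without it, 68 and 74 in WT with it and 118 and 117 in WT without it. No group overlapped another, and both Trm2KO groups were above both WT groups. STE6 was lower with the drug in WT by a log2 difference of −0.72 ± 0.054 (adjusted p = 2.88e-05), the smallest of the 8 drug differences in WT. On FPKM as deposited and on TPM, STE6 stood at −0.72 relative to the median of all features. That median was itself shifted up there, by 0.615 and 0.397, so the difference of STE6 from 0 was smaller on both. In Trm2KO, STE6 was 0.17 ± 0.054 higher with the drug (adjusted p = 0.0489), a call lost in 6 of the 8 fits with 1 library left out. STE6 was higher in Trm2KO than in WT both with the drug, by 1.21 ± 0.054 (adjusted p = 4.45e-06), and without it, by 0.33 ± 0.054 (adjusted p = 0.00444). The difference without the drug was 0.10 on TPM and 0.03 on FPKM as deposited, and passed on neither (adjusted p = 0.808 and 1).

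BAR1, the secreted protease that cleaves alpha-factor, had the largest drug difference of the members. It held 90 and 93.7 normalised FPKM in Trm2KO with hygromycin B, 155 and 144 in Trm2KO without it, 12 and 13.7 in WT with it, and 161 and 155 in WT without it. The drug-treated WT libraries held less than 14 normalised FPKM each, whereas every other library held at least 90. BAR1 was 11.6-fold lower with the drug in WT (log2 difference −3.53 ± 0.072, adjusted p = 5.12e-07), below all but 0.4% of the tested features. It was 1.62-fold lower with the drug in Trm2KO (−0.70 ± 0.072, adjusted p = 0.000971). Without the drug the genotypes differed by −0.08 (95% interval −0.26 to 0.09, adjusted p = 0.402), and with it BAR1 was 6.73-fold higher in Trm2KO (2.75 ± 0.072, adjusted p = 8.71e-07).

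SST2, the regulator that speeds the return of the G protein to its inactive state, held 81.1 and 86.8 normalised FPKM in Trm2KO with hygromycin B, 112 and 100 in Trm2KO without it, 25.5 and 27.4 in WT with it and 83.1 and 82.5 in WT without it. It was 3.05-fold lower with the drug in WT (−1.61 ± 0.07, adjusted p = 3.32e-06) and 1.26-fold lower in Trm2KO (−0.33 ± 0.07, adjusted p = 0.0109). Trm2KO was above WT with the drug (1.63 ± 0.07, adjusted p = 4.09e-06) and, by less, without it (0.35 ± 0.07, adjusted p = 0.00913). The calls within Trm2KO and without the drug were both lost when Trm2KO library 1 without the drug was left out (adjusted p = 0.0564 and 0.0515), and that within Trm2KO also without Trm2KO library 1 with the drug (0.0657). On TPM the difference between untreated genotypes was 0.12 and did not pass (adjusted p = 0.738).

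FAR1, the inhibitor of the G1 cyclin-dependent kinase that also anchors polarity toward a mate, held 85.7 and 87.6 normalised FPKM in Trm2KO with hygromycin B, 111 and 105 in Trm2KO without it, 14.7 and 15.4 in WT with it and 108 and 103 in WT without it. The untreated genotypes overlapped, drug-treated Trm2KO lay a little below them and drug-treated WT far below all. FAR1 was 6.61-fold lower with the drug in WT (−2.73 ± 0.053, adjusted p = 4.29e-07) and 1.24-fold lower in Trm2KO (−0.31 ± 0.053, adjusted p = 0.00498). With the drug it was 5.45-fold higher in Trm2KO than in WT (2.45 ± 0.053, adjusted p = 5.3e-07), and without it the difference was 0.03 (95% interval −0.09 to 0.16, adjusted p = 0.64).

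FUS1, a membrane protein of the fusion zone, was the lowest of the 8 genes in both untreated groups and in drug-treated Trm2KO. It held 19.5 and 20.8 normalised FPKM in Trm2KO with hygromycin B, 26.7 and 26.6 in Trm2KO without it, 17.4 and 18.5 in WT with it and 45.9 and 43.9 in WT without it. Untreated WT stood alone, above 43, and the other 6 libraries lay between 17.4 and 26.7. FUS1 was 2.42-fold lower with the drug in WT (−1.28 ± 0.063, adjusted p = 5.32e-06) and 1.31-fold lower in Trm2KO (−0.39 ± 0.063, adjusted p = 0.00453). Without the drug it was 1.66-fold lower in Trm2KO than in WT (−0.73 ± 0.063, adjusted p = 0.000476). It is the only member of the 8 that did not pass between the genotypes with the drug (0.16, 95% interval 0.01 to 0.31, adjusted p = 0.0562), and it passed there with quantile normalisation (adjusted p = 0.0174) and without WT library 2 with the drug (0.0364).

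The agglutinin subunits stood lower in Trm2KO than in WT already without the drug. AGA1, the anchorage subunit held in the cell wall, held 37.3 and 37.8 normalised FPKM in Trm2KO with hygromycin B, 64.5 and 64.4 in Trm2KO without it, 12.5 and 18.3 in WT with it and 107 and 116 in WT without it. AGA2, the adhesion subunit that binds Aga1 through disulfide bonds, held 166 and 175, 203 and 167, 72.1 and 58.6, and 397 and 386 in the same 4 groups. For both genes untreated WT was highest and drug-treated WT lowest, with both Trm2KO groups between them. Without the drug AGA2 was 2.12-fold lower in Trm2KO than in WT (−1.08 ± 0.12, adjusted p = 0.00112) and AGA1 1.72-fold lower (−0.78 ± 0.15, adjusted p = 0.00856). In WT, AGA1 was 6.97-fold lower with the drug (−2.80 ± 0.15, adjusted p = 7.86e-06) and AGA2 5.95-fold lower (−2.57 ± 0.12, adjusted p = 4.43e-06). In Trm2KO, AGA1 was 1.70-fold lower with the drug (−0.76 ± 0.15, adjusted p = 0.0092, and 0.0514 without Trm2KO library 2 with the drug), and AGA2 did not pass (−0.12, 95% interval −0.41 to 0.18, adjusted p = 0.472). With the drug both were higher in Trm2KO than in WT, AGA1 by 1.26 ± 0.15 (adjusted p = 0.000314) and AGA2 by 1.37 ± 0.12 (adjusted p = 6.87e-05). AGA1 was the member whose drug-treated WT replicates lay farthest apart, by 0.52 on the log2 scale.

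**Figure D2:**
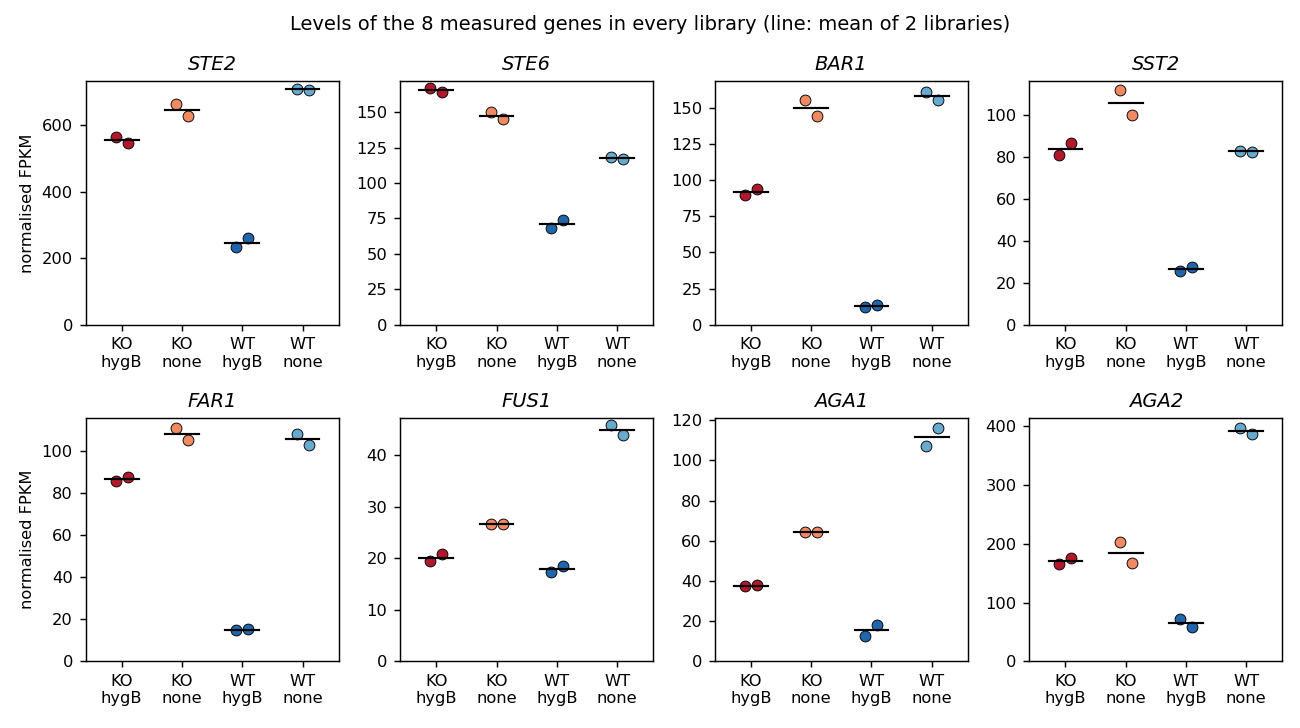
Normalised FPKM (vertical axis, from 0) of each of the 8 measured genes in the 8 libraries, by group (horizontal axis); points are libraries and lines are means of 2. Drug-treated WT is the lowest group for all 8 genes. In the fit, on the scale of log2(normalised FPKM + 1), it is from 11.6-fold (BAR1) to 1.65-fold (STE6) below untreated WT.

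Set side by side, 8 of 8 measured members were lower with the drug in WT, with a median log2 difference of −2.09, against 38.4% of all tested features lower, 40.4% higher and 78.8% in either direction, and a median over all of 0.02. In Trm2KO, 6 of 8 were lower with it (22.3% of all tested features were lower) and 1, STE6, was higher (20.9%; 43.1% in either direction), with a median of −0.32 against −0.02 over all. Between genotypes without the drug, 3 members (AGA1, AGA2 and FUS1) were lower in Trm2KO (19.8% of all tested features) and 2 (STE6 and SST2) were higher (23.2%; 43.0% in either direction). With the drug, 7 of 8 were higher in Trm2KO (37.3% of all tested features, with 39.9% lower and 77.2% in either direction), with a median of 1.32 against −0.03 over all. The interaction, which tests whether the drug difference in Trm2KO is that in WT, was above 0 for 8 of 8 members (30.6% of all tested features, with 33.9% below 0 and 64.5% in either direction), with a median of 1.67. The libraries of the groups did not overlap for 8 of 8 members for the drug in WT (88.3% of all tested features), 7 for it in Trm2KO (77.6%), 7 between genotypes without it (75.6%) and 8 with it (88.8%), shares near those of all features. The 2 drug differences of each member were thus not equal: BAR1 differed by 2.83 ± 0.10 (adjusted p = 1.23e-05), AGA2 by 2.46 ± 0.17 (7.79e-05), FAR1 by 2.41 ± 0.075 (8.48e-06), AGA1 by 2.04 ± 0.22 (0.00035), STE2 by 1.3 ± 0.094 (8.57e-05), SST2 by 1.28 ± 0.099 (0.000107), FUS1 by 0.89 ± 0.089 (0.000278) and STE6 by 0.88 ± 0.077 (0.000161). Comparisons that share a group share its libraries, so these counts are not independent of each other.

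The scaling of the libraries sets where 0 lies and how far apart replicates lie. On FPKM as deposited, the median of all features shifted by 0.61 for the drug in WT, 0.36 for the drug in Trm2KO, −0.26 between genotypes without the drug, −0.53 with it and −0.24 in the interaction. On that scale 0 of 8 members passed in limma in Trm2KO with against without the drug (0 at an unadjusted p under 0.05) and 0 between genotypes without it (3 unadjusted), and 5, 3 and 4 members passed for the drug in WT, between genotypes with it and in the interaction. On TPM the counts were 0 of 8 for the drug in Trm2KO (3 unadjusted), 3 lower between genotypes without the drug, and 7, 7 and 8 for the other comparisons. Of the features called, the share that was higher moved with FPKM as deposited and TPM to 85.6% and 72% for the drug in WT (51.3% with the scale factors), to 78.1% and 90.5% in Trm2KO (48.3%), to 14.1% and 11.4% between genotypes without the drug (54%), to 16.6% and 28.7% with it (48.3%), and to 30.1% and 38.9% in the interaction (47.5%). Relative to the median of all features, the members kept the sign of their difference under each scaling, except FAR1 between untreated genotypes (0.00 on FPKM as deposited and on TPM) and STE2 for the drug in Trm2KO (0.03 with quantile normalisation). In the interaction, AGA1, AGA2, BAR1 and FAR1 passed on FPKM as deposited, and STE2, STE6, FUS1 and SST2 did not (adjusted p = 0.348 to 0.654). BAR1 and FAR1 kept their calls under every alternative run for the drug in WT, between genotypes with the drug and in the interaction.

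**Figure D3:**
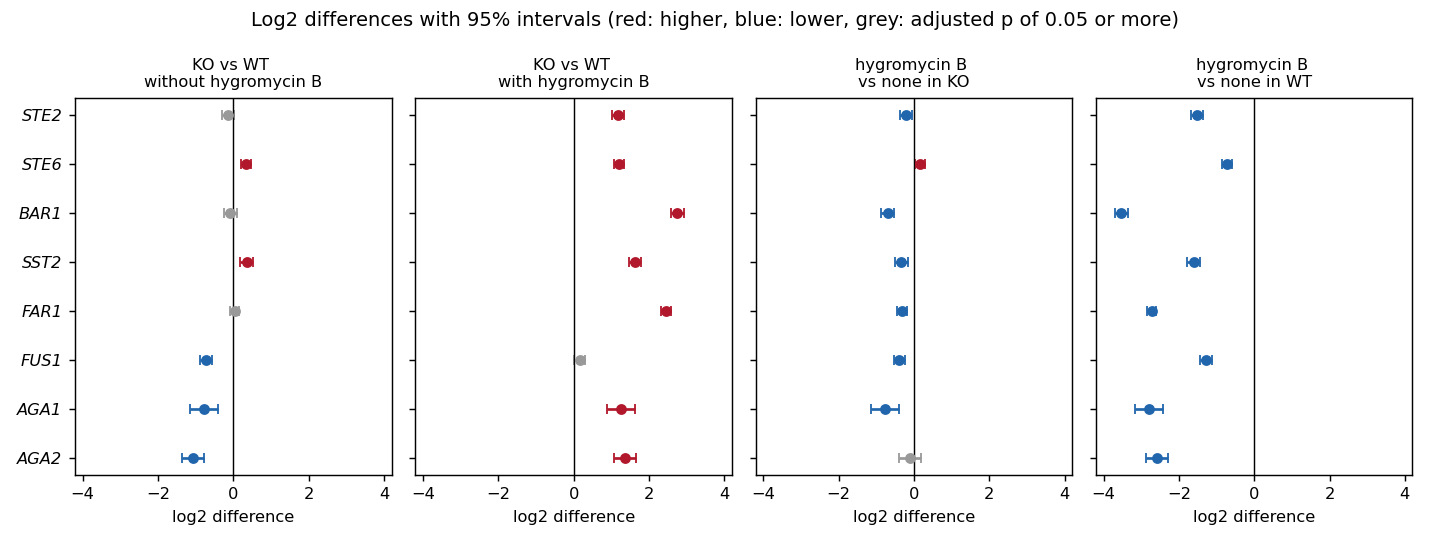
Log2 differences of the 8 measured genes (horizontal axis, log2 of normalised FPKM + 1, with 95% intervals) in the comparisons between groups, without the interaction. All 8 points lie below 0 for the drug in WT, from −3.53 (BAR1) to −0.72 (STE6). With the drug, all 8 lie above 0 for Trm2KO against WT, from 0.16 (FUS1, which did not pass) to 2.75 (BAR1).

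In untreated WT the levels per length ran, from the top, STE2 (mean 707 ± 1.33 normalised FPKM, SD, n = 2), AGA2 (392 ± 7.66), BAR1 (158 ± 4.34), STE6 (117 ± 1.03), AGA1 (111 ± 6.33), FAR1 (105 ± 3.33), SST2 (82.8 ± 0.448) and FUS1 (44.9 ± 1.35). The libraries of AGA1 and FAR1 overlapped, and all other neighbours in that order were separated in these 2 libraries each. In drug-treated WT, STE2 was still first (247 ± 18.8), then STE6 (71 ± 4.25) and AGA2 (65.4 ± 9.48), whose libraries overlapped. SST2 (26.4 ± 1.29) and FUS1 (18 ± 0.835) followed, then AGA1 (15.4 ± 4.09), FAR1 (15.1 ± 0.499) and BAR1 (12.8 ± 1.2). The AGA1 libraries overlapped those of FUS1, FAR1 and BAR1. Thus BAR1 ranked above 5 of the other members in untreated WT and below all of them in drug-treated WT.

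Over the 8 libraries, with each gene centred on its own mean, the members most alike were STE2 and SST2 (root mean square difference 0.25 on the log2 scale), BAR1 and FAR1 (0.32), and AGA1 and AGA2 (0.33), and the least alike were BAR1 and FUS1 (1.14). Among the other tested features, the nearest to BAR1 were PMI40 (0.11) and AIM20 (0.13), those nearest to FAR1 were MEF2 (0.075) and YAR009C (0.078), and those nearest to STE2 were NAM2 (0.045) and PET127 (0.049). SST2 was nearest to YLR372W (0.057) and ERG13 (0.058), STE6 to SNO2 (0.059) and MDM1 (0.069), and FUS1 to CAX4 (0.079) and ADE6 (0.086). AGA1 was nearest to OLE1 (0.15) and ENO1 (0.16), and AGA2 to SSU1 (0.21) and ENO1 (0.23). Each member had a feature outside the list nearer to it than any other member. With 6439 features tested and 8 of them members, that outcome was close to fixed in advance. It is therefore no measure of how alike the members are.

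The mating genes outside the members, in 11 lists, depended on the scaling as well. On FPKM as deposited, the calls that held were 34 of 67 for the drug in WT, 2 of 35 for it in Trm2KO, 4 of 35 between untreated genotypes, 26 of 57 between genotypes with the drug and 4 of 51 interactions. On TPM those numbers were 51, 18, 17, 48 and 30. The counts of higher and lower genes in each list are to be read against the shares of all features given above, such as 40.4% higher and 38.4% lower for the drug in WT.

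The a identity of the cultures was read from genes specific to each cell type. Among genes of alpha cells, the alpha-factor receptor gene STE3 spanned 2.36 to 5.76 normalised FPKM. The alpha-factor genes MF(ALPHA)1 and MF(ALPHA)2 spanned 0.455 to 1.78 and 7.93 to 12.7, and the alpha-agglutinin gene SAG1 23.2 to 30.1. STE2, the a-cell receptor, was at 233 or more throughout, and STE6 and AGA2 also stood above SAG1 in every library. Not every a-specific gene did. In drug-treated WT, BAR1 held 12 and 13.7 against 27.9 and 30.1 for SAG1. The a-specific gene ASG7 held 22.5 and 22.1 in Trm2KO with the drug and 18.7 and 20.4 without it. SAG1 held 24.8 and 26.4, and 25.2 and 25.9, in those groups. AFB1, a barrier for a-factor made by alpha cells, spanned 25.6 to 76.5 normalised FPKM. It stood above SAG1 in every group but drug-treated Trm2KO, where the libraries of both genes overlapped (28.8 and 25.6 for AFB1). Among the alpha-specific genes other than AFB1, STE3 was lower with the drug in WT (−0.67, adjusted p = 0.0109) and SAG1 higher (0.30, adjusted p = 0.00439), and neither call held on FPKM as deposited. Both STE3 and SAG1 calls between genotypes with the drug were lost on FPKM as deposited and without single libraries. The alpha1 genes of MAT and HML, YCR040W and YCL066W, were at 0 to 0.111 and were not tested.

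Of the 6 mating type and silent cassette genes, 4 were tested. HMRA1, the silent copy of the a1 gene, whose reads cannot be told apart from those of an expressed a1 gene at MAT in a cells, held 481 and 485 normalised FPKM in Trm2KO with the drug, 415 and 353 in Trm2KO without it, 856 and 660 in WT with it and 408 and 405 in WT without it. In the same groups HMRA2 held 131 and 110, 43 and 61.8, 465 and 412, and 70.3 and 107. YCR039C and YCL067C, the alpha2 genes at MAT and HML in the reference strain, carry identical coding sequences of 633 bases in R64, the 360 bases of HMRA2 are a stretch of them, and both were listed with equal values, so their reads cannot be assigned to a locus. The same holds for HMRA2, so YCR039C, YCL067C and HMRA2 are not 3 independent genes in the counts below. Of all tested features, 40.4% were higher with the drug in WT and 20.9% in Trm2KO. With the drug, 39.9% were lower in Trm2KO than in WT. All 4 rose with the drug in WT, HMRA2 by 2.32 (adjusted p = 0.000127), YCR039C and YCL067C by 1.21 each (1.65e-05) and HMRA1 by 0.89 (0.00075), and all 4 kept that call under every alternative. Their rise is opposite in direction to the 8 members. In Trm2KO, 3 of 4 were higher with the drug, HMRA2 by 1.21 (adjusted p = 0.00875, lost without Trm2KO library 1 with the drug) and YCR039C and YCL067C by 0.54 (0.0033, with no call on FPKM as deposited). With the drug all 4 were lower in Trm2KO than in WT, by −0.64 to −1.86.

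**Figure D4:**
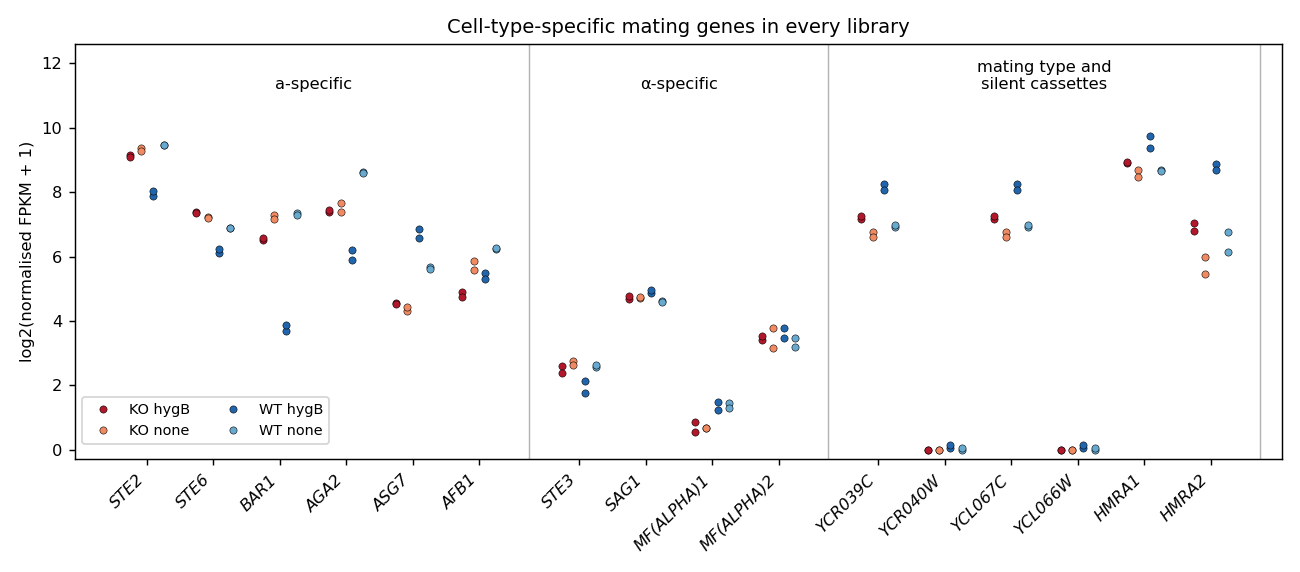
Log2(normalised FPKM + 1) (vertical axis) of cell-type-specific genes (horizontal axis) in every library, coloured by group. The alpha-specific gene STE3 lies low in all groups (2.36 to 5.76 normalised FPKM) and SAG1 lies higher (23.2 to 30.1). AFB1, drawn among the a-specific genes, is a gene of alpha cells and spans 25.6 to 76.5. HMRA2, whose reads cannot be assigned to a locus, is highest in drug-treated WT (465 and 412).

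The remaining a-specific gene, ASG7, did not follow the members. ASG7, an a-cell protein that inhibits signalling through Ste4, held 22.5 and 22.1 normalised FPKM in Trm2KO with the drug, 18.7 and 20.4 in Trm2KO without it, 114 and 93.9 in WT with it and 49.8 and 47.8 in WT without it. It rose with the drug in WT (1.07 ± 0.097, adjusted p = 6.73e-05), and was lower in Trm2KO than in WT with the drug (−2.17, adjusted p = 4.48e-06) and without it (−1.28, adjusted p = 0.000327). AFB1, a barrier for a-factor made by alpha cells, was listed with ASG7. AFB1 held 28.8 and 25.6, 47.3 and 56.6, 44 and 38.4, and 74.3 and 76.5 in the same groups. It fell with the drug in Trm2KO (−0.91, adjusted p = 0.00159) and in WT (−0.86, adjusted p = 0.000347), with no call on FPKM as deposited, and its interaction did not pass (−0.05, adjusted p = 0.813).

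Of the 7 genes that mature a-factor, 3 were lower and 3 higher with the drug in WT, shares near those of all features (38.4% and 40.4%), and on FPKM as deposited 1 was lower and 2 were higher. STE24, a protease that cuts the precursor at the CAAX box, held 120 and 115 normalised FPKM in Trm2KO with the drug, 177 and 174 in Trm2KO without it, 45.4 and 52.2 in WT with it and 158 and 156 in WT without it. The drug difference was −0.58 in Trm2KO (adjusted p = 0.00163, with no call on FPKM as deposited or TPM) and −1.67 in WT (2.98e-06), and the interaction was 1.09 (0.000195, with no call on FPKM as deposited). RCE1, the other CAAX protease, was lower with the drug in both genotypes (−0.38 in Trm2KO and −0.78 in WT, adjusted p = 0.00772 and 7.65e-05), with no call on FPKM as deposited or TPM. RAM2, a farnesyltransferase subunit, was lower in WT (−0.31, adjusted p = 0.0143) and stood above 0 on FPKM as deposited and on TPM. The other subunit gene RAM1 (0.67, adjusted p = 9.31e-05), the methyltransferase gene STE14 (0.24, 0.011, lost on FPKM as deposited and without WT library 2 without the drug or WT library 1 with it) and the protease gene AXL1 (0.40, 0.000458) were higher with the drug in WT. STE23, a protease related to Axl1, was lower with the drug in Trm2KO (−0.23, adjusted p = 0.0104) and was above 0 there on FPKM as deposited and TPM, and its interaction did not pass (adjusted p = 0.192).

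Of 16 G protein, scaffold and MAP kinase genes, 6 were higher and 9 lower with the drug in WT (median −0.33), against 40.4% higher and 38.4% lower over all tested features. On FPKM as deposited 4 were higher and 0 lower there, and on TPM 7 were higher and 4 lower. In Trm2KO, 6 were higher and 4 lower with the drug (20.9% and 22.3% of all features), with 0 passing in limma on FPKM as deposited (3 at an unadjusted p under 0.05) and 6 higher and 0 lower on TPM. Between genotypes with the drug 6 were higher and 7 lower in Trm2KO (37.3% and 39.9% of all features), with 0 higher and 2 lower on FPKM as deposited and 3 higher and 7 lower on TPM. The 3 subunits of the G protein diverged. GPA1, the alpha subunit, held 273 and 283 normalised FPKM in Trm2KO with the drug, 197 and 189 in Trm2KO without it, 123 and 141 in WT with it and 178 and 193 in WT without it. It was higher with the drug in Trm2KO (0.53, adjusted p = 0.00323) and lower in WT (−0.49, adjusted p = 0.00111, but above 0 on FPKM as deposited), with an interaction of 1.01 (adjusted p = 0.000391). On FPKM as deposited neither its difference in Trm2KO nor its interaction passed (adjusted p = 0.463 and 0.586). STE18, the gamma subunit, held 128 and 122, 79.4 and 81.2, 372 and 292, and 86.1 and 76.5 in those groups, and was higher with the drug in both genotypes (0.63 in Trm2KO and 2.01 in WT, adjusted p = 0.00689 and 9.7e-06), with no call in Trm2KO on FPKM as deposited (adjusted p = 0.357). STE4, the beta subunit, was lower with the drug in WT (−0.86, adjusted p = 7.82e-06). STE12, the transcription factor of the pathway, held 89.6 and 90.4, 83.9 and 85, 35.7 and 40.6, and 83.6 and 89.3, fell in WT (−1.16, adjusted p = 1.09e-05) and had an interaction of 1.25 (adjusted p = 0.000111). The STE4 and STE12 calls ended on FPKM as deposited. STE5, the scaffold of the cascade, held 42.8 and 43.3 normalised FPKM in Trm2KO with the drug, 37.3 and 36.4 in Trm2KO without it, 67.5 and 66.4 in WT with it and 38.6 and 38.7 in WT without it, and was higher with the drug in WT (0.78, adjusted p = 8.47e-06). STE11, the first kinase of the cascade, was higher with the drug in Trm2KO (0.47, adjusted p = 0.00141, with no call on FPKM as deposited). DIG2, an inhibitor of Ste12, was higher in Trm2KO than in WT with the drug (61.8 and 58.9 against 34.3 and 33.5; 0.81, adjusted p = 1.22e-05, with no call on FPKM as deposited). Without the drug DIG2 was higher in Trm2KO (0.23, adjusted p = 0.0109) but below 0 on FPKM as deposited, and the kinase gene STE7 (−0.28, 0.0122) and the adaptor gene STE50 (−0.32, 0.0271) were lower, with calls that ended on FPKM as deposited, on TPM and when single untreated libraries were left out.

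Of 18 pheromone-induced, cell fusion and karyogamy genes, 10 were lower and 2 higher in untreated Trm2KO than in untreated WT (median −0.46, against 0.03 over all features, of which 19.8% were lower and 23.2% higher), and 9 were lower on TPM and 2 on FPKM as deposited. FIG1, a protein of mating-dependent calcium uptake named after its values were seen, held 1.1 and 1.46 normalised FPKM in untreated Trm2KO and 7.58 and 6.53 in untreated WT (−1.83, adjusted p = 0.00191). PRM5 held 26 and 28.6 in untreated Trm2KO and 92.1 and 89.8 in untreated WT (−1.70, adjusted p = 4.56e-05). PRM8 (−0.49, adjusted p = 0.000463), and KAR4, a transcription factor of karyogamy genes (−0.68, 0.000304), were lower too, with no call on FPKM as deposited. With the drug in WT, 9 of the 18 were lower and 6 higher (3 and 5 on FPKM as deposited, 6 and 6 on TPM), against 38.4% and 40.4% of all tested features. Among the higher ones were PRM5 (320 and 330 with the drug, against 92.1 and 89.8 without it, 1.83, adjusted p = 1.83e-06) and PRM4 (155 and 163, against 46.7 and 46.8, 1.75, 1.38e-06). In Trm2KO, 2 were lower and 5 higher with the drug (1 and 0 on FPKM as deposited, 1 and 4 on TPM), against 22.3% and 20.9% of all tested features. PRM7 held 3.87 and 3.19 normalised FPKM in Trm2KO with the drug, 66.6 and 83.7 in Trm2KO without it, 32.5 and 31.6 in WT with it and 94 and 115 in WT without it. It thus fell further in Trm2KO (−4.07, adjusted p = 8.9e-05) than in WT (−1.67, adjusted p = 5.32e-05), with an interaction of −2.39 (adjusted p = 0.00015). CIK1, a kinesin-associated protein of karyogamy, was higher in Trm2KO than in WT with the drug (33.4 and 34 against 13.3 and 12.7; 1.31, adjusted p = 3.88e-06), with no call on FPKM as deposited. PRM10 held 13.3 and 13.8 in Trm2KO with the drug, 15 and 14 in Trm2KO without it, 52 and 47.5 in WT with it and 21 and 19.1 in WT without it, with an interaction of −1.36 (adjusted p = 0.000127, with no call on FPKM as deposited).

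Among 5 genes that dampen the pheromone signal, PTP2, a phosphatase of MAP kinases, held 22.8 and 24.5 normalised FPKM in Trm2KO with the drug, 24 and 21 in Trm2KO without it, 96.5 and 91.1 in WT with it and 38.6 and 36.8 in WT without it. It rose with the drug in WT (1.29, adjusted p = 1.25e-05) and was lower in Trm2KO than in WT with the drug (−1.95, adjusted p = 3.45e-06). AFR1, which regulates the receptor and cell shape, held 17.6 and 17.8 in untreated Trm2KO and 61.3 and 53.5 in untreated WT (−1.64, adjusted p = 9.17e-05). MPT5, an RNA-binding protein, was lower with the drug in Trm2KO (−0.48, adjusted p = 0.00235, with no call on FPKM as deposited or TPM) and higher in WT (0.40, adjusted p = 0.0012). MSG5 was lower with the drug in both genotypes (−0.27 in Trm2KO and −0.30 in WT, adjusted p = 0.0109 and 0.00287) and stood above 0 on FPKM as deposited and TPM, and PTP3 did not pass in any of the 5 comparisons (adjusted p of 0.0831 to 0.838).

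Haploid-specific genes outside signalling and the G1 cyclins also fell with the drug in WT. HO, the mating-type switching endonuclease gene, held 99.9 and 99.9 normalised FPKM in Trm2KO with the drug, 111 and 110 in Trm2KO without it, 3.44 and 2.73 in WT with it and 56 and 54.8 in WT without it. All 4 haploid-specific genes outside signalling were lower with the drug in WT, against 38.4% of all tested features. These were HO (−3.79, adjusted p = 6.88e-07), the meiosis repressor RME1 (−1.72, 1.68e-06), the recombination gene RDH54 (−0.84, 2.27e-05, with no call on FPKM as deposited) and the end-joining gene NEJ1 (−0.53, 0.000766, above 0 with no call on FPKM as deposited). In Trm2KO 0 of the 4 passed in limma (0 at an unadjusted p under 0.05, adjusted p of 0.112 to 0.603). All 4 interactions passed above 0, against 30.6% of all tested features above 0 and 64.5% in either direction. On FPKM as deposited 1 of the interactions passed, that of HO, and on TPM 2 did. The haploid-specific genes within signalling went both ways with the drug in WT. STE18 (2.01) and STE5 (0.78) were higher. GPA1 (−0.49), STE4 (−0.86) and FUS3 (−0.73) were lower, with no call on FPKM as deposited. CLN2, a G1 cyclin that acts with the kinase Far1 inhibits, held 105 and 111 in Trm2KO with the drug, 119 and 116 in Trm2KO without it, 4.5 and 5.74 in WT with it and 88.9 and 95.5 in WT without it. CLN2 (−3.94, adjusted p = 8.62e-07), CLN1 (−2.21, 1.18e-06) and CLN3 (−1.3, 0.00015) were lower with the drug in WT (CLN3 with no call on FPKM as deposited), and the kinase gene CDC28 was 0.11 higher (adjusted p = 0.0343), a call lost on FPKM as deposited and in 6 of the 8 fits with 1 library left out. In Trm2KO, CLN3 was lower (−0.82, adjusted p = 0.00509, with no call on FPKM as deposited or TPM), CDC28 higher (0.43, 0.000714, with no call on FPKM as deposited), and CLN1 and CLN2 did not pass (adjusted p = 0.454 and 0.368).

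Of 7 regulators of mating-type genes, 2 were higher and 4 lower with the drug in WT (2 and 1 on FPKM as deposited, 2 and 2 on TPM). Over all tested features 40.4% were higher and 38.4% lower there. TUP1, a corepressor used by alpha2, held 138 and 150 normalised FPKM in Trm2KO with the drug, 203 and 238 in Trm2KO without it, 23.1 and 37.3 in WT with it and 150 and 170 in WT without it, and fell in WT (−2.40, adjusted p = 5.7e-05). Its partner gene CYC8 fell in WT as well (−1.23, adjusted p = 5.06e-05, with no call on FPKM as deposited). SIR1, which helps to silence HML and HMR, held 28.7 and 28.7, 20 and 18.8, 54.8 and 46.3, and 12.2 and 10.9 in the same groups and rose in WT (2.04, adjusted p = 4.29e-06). Of the other silencing genes, SIR2 was lower in WT with the drug (−0.80, adjusted p = 0.000127, with no call on FPKM as deposited or TPM), SIR4 higher (0.41, 0.000366), and SIR3 did not pass (0.00, adjusted p = 0.957). MCM1, the activator of a-specific genes, was lower by a margin that turned under each other scaling (−0.22, adjusted p = 0.047).

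Markers of meiosis in diploids were higher with the drug in WT in 5 of 5 genes, against 40.4% of all tested features, with the IME2 call lost without WT library 2 without the drug. They were low in level: IME1, the inducer of meiosis, held 39.4 and 37.5 normalised FPKM in Trm2KO with the drug, 39.6 and 34.4 in Trm2KO without it, 43.3 and 47.3 in WT with it and 24.8 and 22.8 in WT without it. The other 4, IME2, NDT80, SPO11 and SPO13, spanned 3.13 to 40.3 over all libraries. NDT80 rose most in WT (1.54, adjusted p = 3.7e-06). In Trm2KO, NDT80 (0.34, adjusted p = 0.00916) and SPO13 (0.41, 0.0181) were higher with the drug, and both calls were lost on FPKM as deposited and without Trm2KO library 2 with the drug, and that of SPO13 also without Trm2KO library 1 with it or without it.

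**Figure D5:**
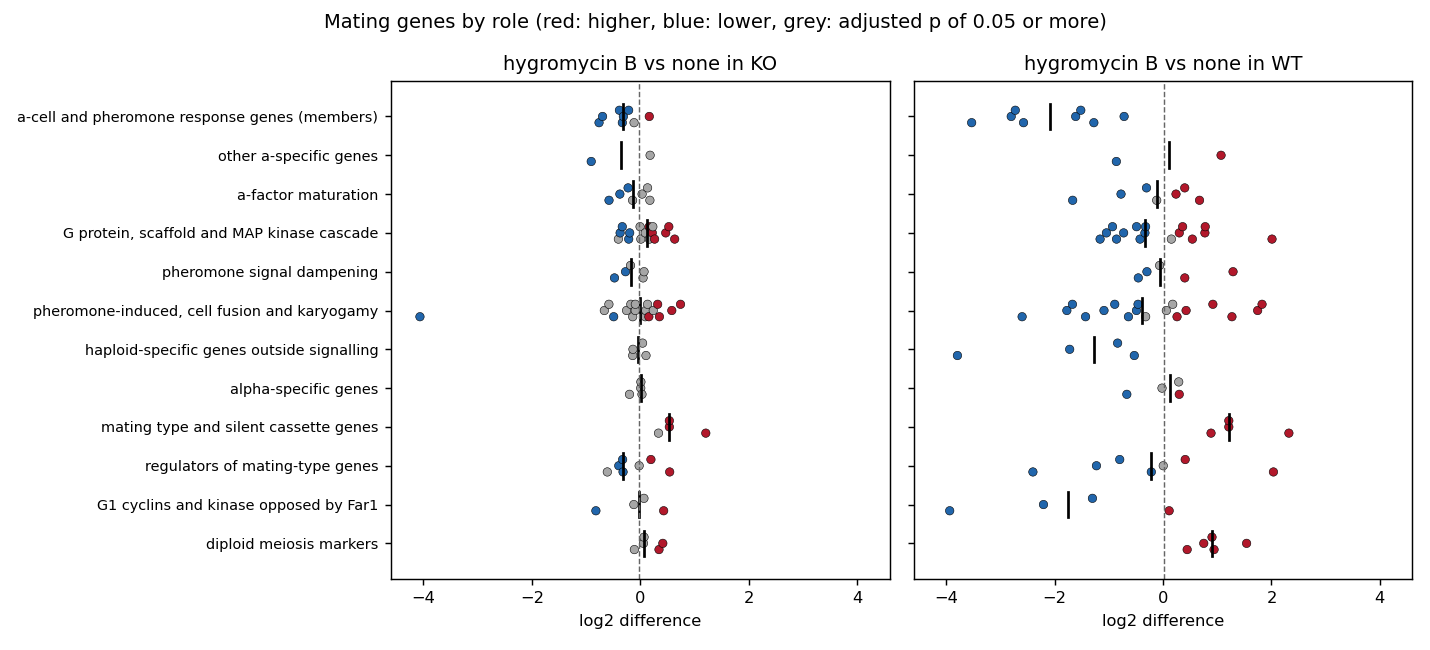
Log2 differences with against without hygromycin B (horizontal axis) of the members and of 11 lists of mating genes (rows), in Trm2KO and in WT; each point is a gene and the dashed line is the median of all tested features. In WT the members, haploid-specific genes outside signalling and G1 cyclins lie mostly below 0. The signalling genes, some of them haploid-specific too, lie on both sides. The mating type and silent cassette genes, whose reads cannot be assigned to a locus, lie above 0 there. The row of other a-specific genes holds ASG7 and the alpha-cell gene AFB1.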

How the data were processed

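RNA of 8 cultures was measured as gene expression, 2 libraries in each of 4 groups taken from the sample labels. The authors deposited FPKM, which scale a gene's fragments by its length and by the library's mapped fragments. The submitters' processing notes name RSEM 1.3.3, STAR 2.7.8a, FastQC 0.11.8 and cutadapt 2.3. The genome build, annotation and strand setting are not given in the sources used here. RSEM divides reads between near-identical genes. FPKM are not counts, so no count test was run; a search of low values for whole reads at each coding length reached a mean cosine of 0.209 to 0.475 (1 would mean whole reads), and depth stayed unknown.

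From these values, FPKM were divided by a median-of-ratios scale factor, and log2(value + 1) of the 6439 features with a mean of at least 1 FPKM was fitted in limma 3.58.1 (R 4.3.3; 1 mean per group, eBayes with trend, 4 residual degrees of freedom, 6.39 after moderation), with two-sided tests and Benjamini-Hochberg adjustment over all features. The p-values rest on 1 spread per feature, pooled over the 2 cultures of each of the 4 groups and moderated toward a trend over all features. They do not rest on the spread of the groups compared alone. The fit was tested on simulated data. Alternatives were FPKM as deposited, TPM, quantile normalisation, a pseudocount of 0.1, a minimum of 10 FPKM, no filter, the replicate number as a block, and each library left out. Positions and sequences came from RefSeq R64, matched by locus tag for 6047 features. Members and lists were chosen with earlier results of these data known. The named genes are every member, all genes of lists of up to 7 genes, and up to 3 genes with the smallest p from each longer list and comparison; others are marked as named after their values were seen.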

Additional observations from a re-analysis of the deposited data

Results flagged for a closer look

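For each gene below the hygromycin B difference in Trm2KO was not that in WT, by the genotype by hygromycin B interaction of the limma fit (adjusted p under 0.05). Of all tested features 64.5% passed that test, so passing it does not set these genes apart. Most genes outside the members were named for the smallest p in their list, which favours keeping a call. Values are the log2 difference in Trm2KO minus that in WT, so a positive value means a higher difference in Trm2KO. Among the members the interaction was 2.83 for BAR1, 2.46 for AGA2, 2.41 for FAR1, 2.04 for AGA1, 1.3 for STE2, 1.28 for SST2, 0.89 for FUS1 and 0.88 for STE6.

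Among the other a-specific and a-factor genes it was −0.89 for ASG7, 1.09 for STE24, −0.50 for RAM1 and 0.40 for RCE1. In signalling it was 0.85 for STE4, 1.25 for STE12, 1.01 for GPA1, −1.22 for PTP2, −0.88 for MPT5 and 0.51 for AFR1. Among pheromone-induced and fusion genes it was −1.39 for PRM4, −1.36 for PRM10, −2.39 for PRM7 and 0.98 for CIK1. Haploid-specific genes outside signalling gave 3.65 for HO, 1.76 for RME1, 0.63 for NEJ1 and 0.70 for RDH54. The cassettes and SAG1 gave −0.68 for YCR039C and YCL067C, −1.11 for HMRA2 and −0.29 for SAG1. Regulators and cyclins gave −1.5 for SIR1, 1.79 for TUP1, 0.83 for CYC8, 3.82 for CLN2, 2.27 for CLN1 and 0.32 for CDC28. Meiosis markers gave −1.20 for NDT80, −0.85 for IME1 and −0.87 for SPO11. Of these 31 genes outside the members, 4 (HO, CLN1, CLN2 and PRM7) kept the interaction call on FPKM as deposited, 24 on TPM, and 28 in every fit with 1 library left out (all but RCE1, SAG1 and HMRA2). Of the 8 members, 4 (BAR1, AGA1, AGA2 and FAR1) kept it on FPKM as deposited.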

How the results depend on the processing

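For single members, 2 of the values with 1 library left out turned in direction. With another alternative, 237 values kept direction and call, 30 lost the call, 1 gained it and 12 turned in direction. On FPKM as deposited, the members changed numbered 0 between genotypes without the drug, 5 for the drug in WT, 0 for it in Trm2KO, 3 between genotypes with it and 4 in the interaction, and all genes changed numbered 163, 2550, 105, 2128 and 469. On TPM, 3 members passed between untreated genotypes and 0 for the drug in Trm2KO, and all genes changed numbered 1032 between untreated genotypes, 1513 for the drug in Trm2KO and 2238 in the interaction. With 1 library left out, 4 to 7 members passed for the drug in Trm2KO, and all genes changed numbered 1694 to 3234 between untreated genotypes and 1449 to 3283 for the drug in Trm2KO. Direction turned for FAR1 between untreated genotypes (−0.26 on FPKM as deposited, −0.19 on TPM, and −0.01 to 0.071 with 1 library left out, negative without Trm2KO library 1 without the drug). For the drug in Trm2KO it turned for STE2 (0.19, 0.086 on TPM, 0.031 with quantile normalisation), AGA2 (0.29, 0.18 on TPM, and −0.254 to 0.025 with 1 library left out, positive without Trm2KO library 1 without the drug), FUS1 (0.004), FAR1 (0.091) and SST2 (0.072), on FPKM as deposited where no setting is named. It turned for FUS1 between genotypes with the drug (−0.33 and −0.15 on TPM). FPKM as deposited and TPM shift the median of all genes. FPKM as deposited also leaves in place the differences in scale between replicates. The scale factors were 0.725 and 1.21 in untreated WT and 0.611 and 0.947 in untreated Trm2KO. With the drug they were 1.43 and 1.44 in WT and 1.16 and 0.88 in Trm2KO. How much each of these bore on the lost calls was not tested, nor was any other cause. A fit with 1 library left out assumes that the lone library of its group varies like the others.

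With the replicate number as a block, the pairing of numbers had no support in the labels and the deviations of same-numbered libraries correlated at −0.23 to 0.26. The block left 5, 8, 5, 7 and 8 members passing between untreated genotypes, for the drug in WT, for it in Trm2KO, between genotypes with it and in the interaction. STE2 and STE6 for the drug in Trm2KO no longer passed (adjusted p = 0.06 and 0.0684), and no other member call changed. Read depth is unknown, and with 2 libraries a group small differences are poorly resolved.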
